A study of Mus musculus with 16 samples.

Results

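The libraries labelled CA3 are 5 of the 16 bulk RNA-seq libraries of this study, 3 from trained mice and 2 from untrained mice, and all 5 were chosen by their labels alone. CA3 of the remaining untrained mouse was not analysed here, and the study states that it did not pass sequencing quality control. Every mouse carried the ArcCreERT2::eYFPflx genotype on a C57BL/6 background and was 3 to 4 months old. In these mice an inducible Cre is driven by the promoter of Arc and can switch on eYFP, so the untrained mice carried the same alleles. Trained mice learned active place avoidance, in which entering a 60 degree zone of a rotating arena brings a mild shock, over 4 trials of 30 min. Untrained mice explored the same arena with the shock off. Both groups went back into the arena for a 10 min retention test 24 h after the last training session, and tissue was taken 60 min after that test. The dorsal CA3 of each animal was microdissected and pooled into 1 library. The comparison therefore asks which transcripts differ in CA3 between trained and untrained mice after the retention test. Shock, learning and recall of the avoidance memory differ together between the groups and cannot be told apart.

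CA3 pyramidal neurons receive mossy fibre input from dentate granule cells and excite each other through recurrent collaterals. This recurrent network is known for its part in completing a stored memory from a partial cue. Retrieval of a memory is known to engage immediate early genes within minutes, and genes of synapses, ion channels and metabolism over longer times.

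The labels of the libraries were first checked against markers of the subregions, because the dissection could take in neighbouring cells. Prox1, the transcription factor that defines dentate granule cells, had values from 2690 to 4786 in the libraries labelled CA3, from 3292 to 4183 in those labelled DG and from 3052 to 3861 in those labelled CA1. Grik4, a kainate receptor subunit enriched in CA3 neurons, ranged from 314 to 621 in the CA3 libraries, from 374 to 522 in DG and from 268 to 438 in CA1. Neither gene set the CA3 libraries apart, since the ranges overlapped. Of 16 CA3 markers, 6 had their highest mean level in the CA3 libraries. Across all genes, 1 of 14673 (0.00682%) differed between the libraries labelled CA3 and DG when training was averaged out. That gene, Slc5a3, a myo-inositol transporter, was 0.35 higher in CA3 on the log2 scale (standard error, SE, 0.0537, limma adjusted p = 0.0142). Against CA1, 145 genes (0.988%) differed, and 8 of 12 CA1 markers were lower in the CA3 libraries. The markers thus separated CA3 from CA1 in part and did not separate CA3 from DG, and the name CA3 below refers to the label.

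**Figure D1:**
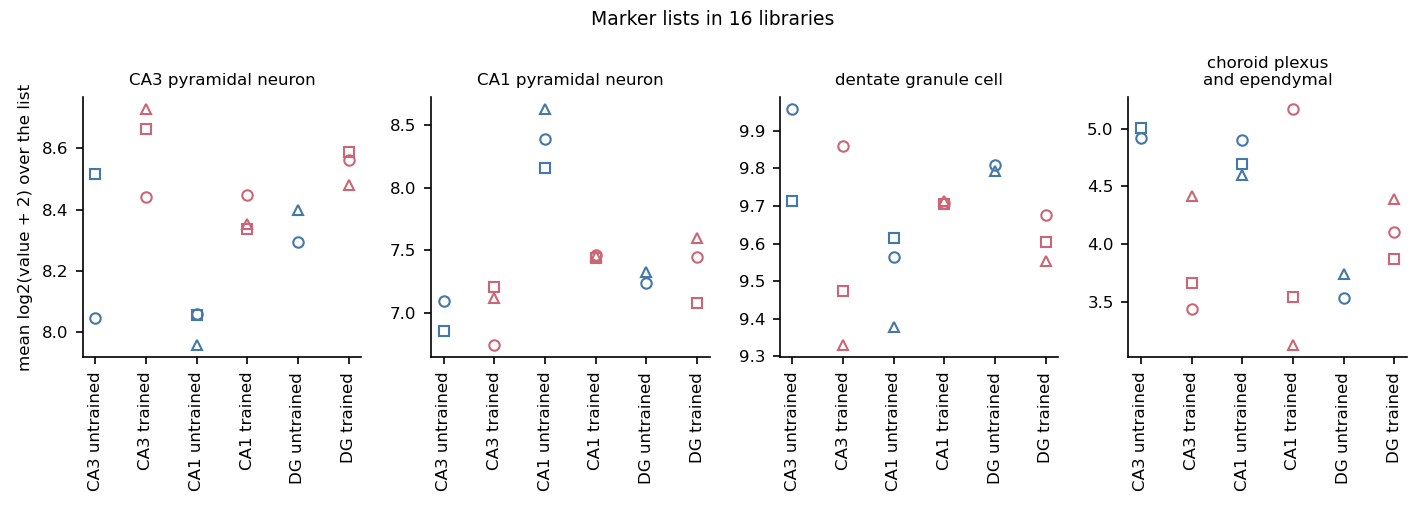
Each point is 1 library and gives the mean log2(value + 2) over the markers of 1 cell type (vertical axis); the 6 columns are the groups of subregion and training (untrained blue, trained red), and circles, squares and triangles are replicates 1, 2 and 3. The CA1 list sits lower in the CA3 libraries than in CA1, at a mean of 7.00 against 7.92, whereas the CA3 list has a mean of 8.48 in CA3 and 8.47 in DG.

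The 5 libraries also differed in ways that training does not name. The number of genes at 0 was 8692 and 8009 in trained replicates 1 and 2, but 3171 in trained replicate 3 and 5659 and 3578 in untrained replicates 1 and 2. The reads behind them, approximated from the spacing of low values, ran from 6810000 to 14770000. Over the log2 values of all genes tested, trained replicate 3 had Pearson correlations of 0.9774 and 0.984 with trained replicates 1 and 2. Its correlations with untrained replicates 1 and 2 were 0.9765 and 0.9845, so the groups did not part on all genes. Xist, the noncoding RNA that coats the inactive X in females, was at 10587 and 28.6 in the untrained libraries and at 19592, 16200 and 12112 in the trained ones. Untrained replicate 1 held Y-linked transcripts as well, with Ddx3y at 201, while CA1 and DG of the animal with the same label had Xist at 26.1 and 25.5. This library went against the other libraries of its own animal, so counts are also given without it. Trained replicate 3 also held Y-linked transcripts, with Ddx3y at 92.9, Uty at 51.4 and Eif2s3y at 50.2. The study states 2 female and 1 male trained mice, while Xist was high in all 3 trained libraries. None of the 6 sex-linked transcripts passed the test, 2 had an unadjusted p under 0.05, and Xist had an adjusted p of 0.553.

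Training was accompanied by 118 differentially expressed genes (DEGs, limma adjusted p-value under 0.05) of 13848 tested, or 0.852%. Higher values in trained CA3 were found for 102 of them (0.737%) and lower values for 16 (0.116%). At an unadjusted p under 0.05 there were 2182 genes (15.8%), of which 1293 (9.34%) were higher and 889 (6.42%) lower. Changes were mostly modest, since 94 of the 102 upregulated genes and 10 of the 16 downregulated genes changed by less than 1 on the log2 scale. The upregulated genes were well expressed, with a median value of 706 against 183 for all genes tested. In each of the 118 genes the trained libraries all lay on one side of both untrained ones, an order that 17.2% of all genes tested had in the upward and 16.7% in the downward direction. Every DEG has this order, so it adds no support to the single genes described below.

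The number of DEGs depended on single libraries. Leaving out trained replicate 2 gave 7 genes, untrained replicate 1 gave 17 and untrained replicate 2 gave 26, while leaving out trained replicate 1 gave 680. Trained replicate 3 alone, the trained library with few genes at 0, gave 14 genes against both untrained libraries, of which 10 were among the 118. The lone trained library is assumed there to vary like the others. Atp6v0c, Ttr and Zfp966 were the 3 genes that passed with each of the 5 libraries left out in turn, and the calls of the other genes below were lost, or could not be tested, without at least 1 library. In a fit of all 16 libraries, which share one estimate of the spread, these 3 genes did not pass (limma adjusted p = 0.180, 0.216 and 0.107). That fit gave 413 DEGs, and 95 of the 118 were among them. Of the other genes described below, Capn11 (limma adjusted p = 0.0524), Sv2c (0.0733), Clic6 (0.0841), Mt1 (0.0956), Atp6v0c-ps2 (0.106), Uqcr11 (0.110), Sst (0.112), Rplp1 (0.153), Rplp2 (0.161), Uqcrq (0.241), Chpf (0.362), Rpl36 (0.377) and Zfp967 (0.589) did not pass it either. Of the 118 genes, 6 still passed without trained replicate 2, 8 without untrained replicate 1, 11 without untrained replicate 2, 78 without trained replicate 3 and 118 without trained replicate 1. A score of the sex-linked transcripts as a covariate left 47 DEGs, 14 of them among the 118. The size of the change, as the median over the 118 of the absolute log2 fold change, was 0.574 with that score and 0.575 without it, and 0.556 to 0.583 with 1 library left out.

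**Figure D2:**
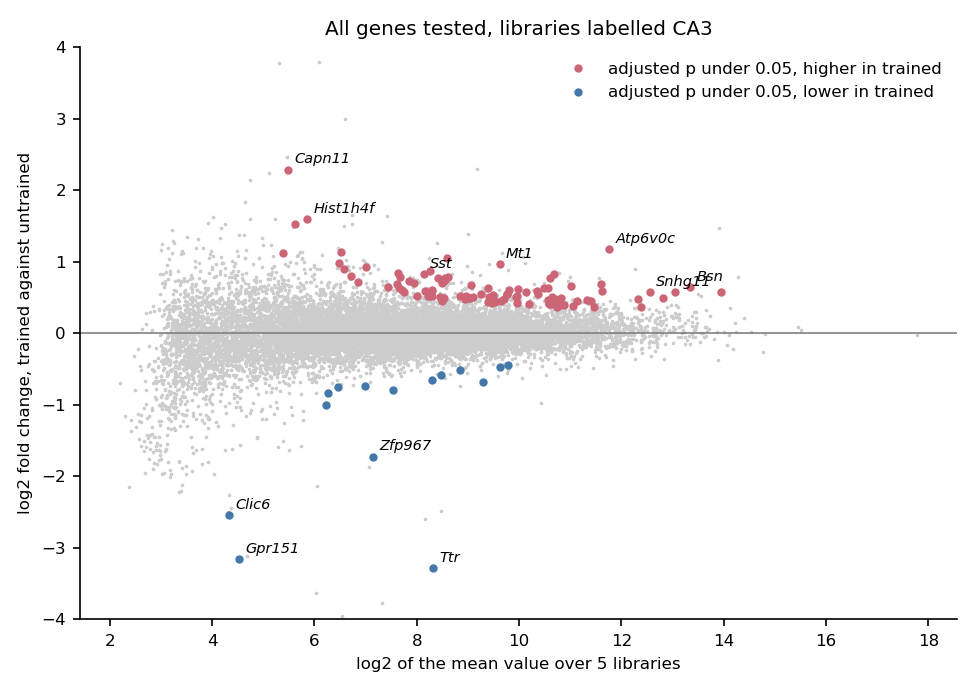
Each point is 1 gene of the 13848 tested, with the log2 of its mean value over the 5 CA3 libraries on the horizontal axis and its log2 fold change, trained against untrained, on the vertical axis; 7 genes beyond 4 in either direction, 2 of them DEGs, are not drawn. The 102 upregulated DEGs (red) lie mostly below a log2 fold change of 1, and Ttr, Gpr151 and Clic6 are the DEGs drawn furthest down.

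Apart from a pseudogene, the downregulated genes with the largest changes are known from tissue next to the hippocampal neurons. Ttr encodes transthyretin, the thyroid hormone carrier made by the choroid plexus. Its value was 561 and 834 in the untrained libraries and 66.6, 72.4 and 66.2 in the trained ones. The groups did not overlap, and Ttr fell by 3.29 on the log2 scale (SE 0.158, limma adjusted p = 7.26e-06). Clic6, a chloride channel protein also abundant in choroid plexus, was at 39.6 and 43.3 in untrained and at 6.07, 2.26 and 9.84 in trained CA3 (log2 fold change -2.55, SE 0.459, limma adjusted p = 0.0343). Gpr151, an orphan receptor known from habenular neurons, was at 67.1 and 35.9 in untrained and at 2.195, 4.71 and 4.71 in trained CA3 (log2 fold change -3.16, SE 0.438, limma adjusted p = 0.0101). All 3 genes were low in every trained library. Tac2 and Pou4f1, which are also known from the habenula and were too low to test, were high in untrained replicate 1 alone, at 46.8 and 33.6 against 0.562 to 6.15 in the other 4 libraries. Gpr151 and Clic6 could not be tested without that library. In bulk tissue, fewer cells of a type and less RNA per cell cannot be told apart.

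Among the markers of the choroid plexus and ependyma, 14 of 15 tested had negative log2 fold changes, with a median of -0.79, and Ttr and Clic6 were those that passed, beside 0.116% of all genes tested that passed downward. The median was -0.12 without untrained replicate 2, -1.05 without trained replicate 3 and -0.16 with trained replicate 3 as the only trained library, and no marker passed in the fit of all 16 libraries. The summed level of this list was 2044 and 2723 in the untrained and 1059 to 1673 in the trained libraries, and Folr1, a defining choroid plexus marker, stood at 11.03 and 13.1 against 1.02, 1.18 and 7.94. Slc4a5, Steap1, Ccdc153 and Tmem212 were at 0 in at least 1 trained library. For the leptomeninges and fibroblasts, 2 of 15 markers were positive, the median was -0.55 (-0.34 without trained replicate 2) and none passed, with 4 lower at an unadjusted p under 0.05. Their summed level was 2967 and 3258 in untrained against 1640 to 2625 in trained libraries. The part of these cells in the changes of Ttr and Clic6 was not tested.

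The other downregulated genes held transcripts of neurons and glia. Bcl6, a transcriptional repressor, was at 859 and 779 in untrained and at 545, 449 and 529 in trained CA3 and fell by 0.69 on the log2 scale (SE 0.100, limma adjusted p = 0.0137). Inhba, the activin subunit induced by synaptic activity, was at 253 and 243 in untrained and at 169, 136 and 125 in trained CA3 (log2 fold change -0.79, SE 0.138, limma adjusted p = 0.0324). Sv2c, a synaptic vesicle glycoprotein, was at 416 and 388 against 274, 237 and 253 (log2 fold change -0.66, limma adjusted p = 0.0173). Each of these genes was low in all 3 trained libraries. Decreases were also measured for Slc7a11, the cystine and glutamate antiporter (-0.52), Lztfl1, a regulator of ciliary trafficking (-0.59), Btaf1, a TATA-binding protein cofactor (-0.45), and Adgrv1, an adhesion receptor (-1.01). The remaining 6 were Rgs6, Npy5r, Tnc, Ide, Zfp967 and a pseudogene, Atp6v0c-ps2.

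**Figure D3:**
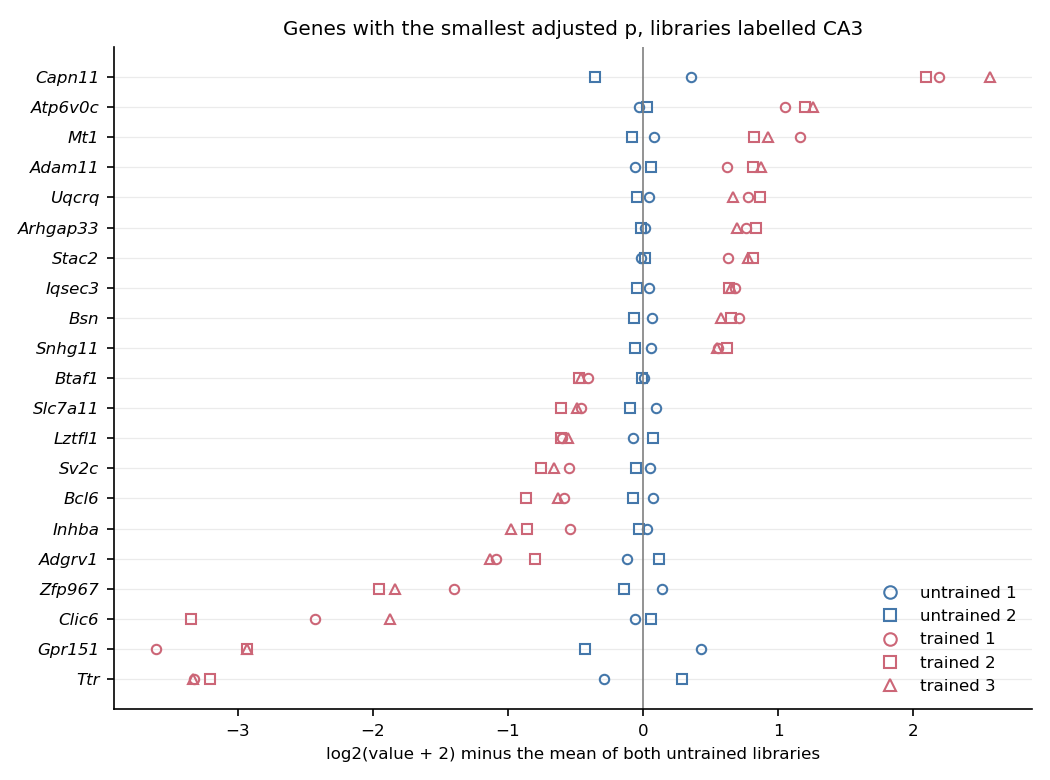
Each symbol is 1 library: the horizontal axis is its log2(value + 2) minus the mean of both untrained libraries, and the genes listed are the upregulated and downregulated DEGs with the smallest adjusted p, leaving out Atp6v0c-ps2 and Zfp966, which are listed at 0 in a group, and any gene not reported here. The untrained libraries (blue) sit near 0 and the trained libraries (red) sit apart from them for every gene drawn, from Capn11 at a log2 fold change of 2.28 to Ttr at -3.29. Only genes whose groups did not overlap were drawn, so this separation comes from the choice.

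Atp6v0c and its pseudogene, which have small adjusted p-values, share a near-identical coding stretch. Atp6v0c, the proton-conducting subunit of the vacuolar ATPase that acidifies synaptic vesicles and lysosomes, lies on chromosome 17 from 24163866 to 24169702 (GRCm38). Its processed pseudogene Atp6v0c-ps2 lies on chromosome 6 from 37806086 to 37806550. Over the 465 bases of the pseudogene, which match the coding sequence of Atp6v0c, 1 base differs. It is T111C, written as the Atp6v0c base, the position counted from the first base of the pseudogene, and the pseudogene base. The remaining 718 of the 1183 bases of the Atp6v0c transcript lie outside this stretch and are not in the pseudogene. The 81 bases around the position are shown from the GENCODE vM21 transcripts because they hold the 1 difference, in capitals:

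Atp6v0c: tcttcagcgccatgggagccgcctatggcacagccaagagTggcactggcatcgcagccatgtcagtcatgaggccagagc

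Atp6v0c-ps2: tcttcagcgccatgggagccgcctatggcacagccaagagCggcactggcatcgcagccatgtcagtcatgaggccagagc

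Atp6v0c was at 1942 and 2020 in untrained and at 4116, 4556 and 4737 in trained CA3, a 2.25-fold rise (log2 fold change 1.17, SE 0.0802, limma adjusted p = 7.92e-05). Atp6v0c-ps2 was at 1338 and 1700 in the untrained libraries and was listed at 0 in all 3 trained ones (limma adjusted p = 1.11e-08). Both genes separated the groups completely, in opposite directions. When the values of the gene and its pseudogene were summed, the untrained libraries had 3280 and 3720 and the trained ones 4116, 4556 and 4737. The sum had a log2 fold change of 0.35 (SE 0.0868) and did not pass, with a limma adjusted p of 0.0891. The values of either gene alone are therefore uncertain, and of the 18 vacuolar ATPase subunits tested Atp6v0c was the only one that passed, while the list had a median of 0.15 and 16 positive values.

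A second group of near-identical genes behaved likewise. Zfp966 and Zfp967 encode KRAB zinc finger proteins of a cluster on chromosome 2, and a Zfp967 transcript of 1458 bases is contained without a mismatch in a Zfp966 transcript of 2939 bases. Zfp966 was listed at 0 in both untrained libraries and at 126, 135 and 79.6 in the trained ones (limma adjusted p = 9.34e-06). Zfp967 was at 269 and 221 in untrained and at 91.2, 61.4 and 67.0 in trained CA3 (log2 fold change -1.73, SE 0.178, limma adjusted p = 0.0043). Summed over the 8 members of this family that share sequence, the log2 fold change was -0.20 (SE 0.221, limma adjusted p = 0.713), and the groups overlapped. In all, 9 of the 118 DEGs had a near-identical copy, at 95% identity or more over at least 80% of the shorter transcript, and summing the copies gave 108 DEGs.

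Several upregulated genes encode presynaptic and postsynaptic scaffolds. Bsn encodes Bassoon, a giant scaffold of the presynaptic active zone. It was at 8105 and 7400 in untrained and at 12686, 12140 and 11570 in trained CA3, a 1.57-fold rise (log2 fold change 0.65, SE 0.0751, limma adjusted p = 0.00581). Ppfia3, a liprin of the same scaffold, was at 840 and 823 against 1164, 1087 and 1088 (log2 fold change 0.42, limma adjusted p = 0.0337). Both genes were higher in every trained library. They were the 2 of 31 active zone and release genes that passed, beside 0.737% of all genes tested that passed upward. That share and the 0.116% that passed downward are the background for the counts of genes that passed in the lists that follow. The list had 24 positive values and a median of 0.12, against a median of -0.01 and 48.9% positive values over all genes tested.

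In the postsynaptic density, 2 of 34 genes passed, beside 0.737% of all genes in the upward direction. Dlgap4, a scaffold that links PSD-95 to Shank proteins, was at 1358 and 1207 in untrained and at 1725, 1673 and 1674 in trained CA3 (log2 fold change 0.40, limma adjusted p = 0.0452), and Begain, a binding partner of PSD-95, rose by 0.49 (limma adjusted p = 0.0371). Shank1, the largest of the Shank scaffolds, was at 3726 and 2747 in untrained and at 7105, 6077 and 4946 in trained CA3. Its log2 fold change of 0.90 had a SE of 0.194 and an adjusted p of 0.120, so the difference did not pass although the groups did not overlap. Shank3 had a log2 fold change of 0.73 (SE 0.174, limma adjusted p = 0.127). The list had 26 positive values and a median of 0.09, which was 0.04 without untrained replicate 2 and 0.13 without untrained replicate 1.

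Genes of the synaptic vesicle leaned upward without any passing the test. Of 32 genes for SNAREs, fusion and vesicles, 25 had positive log2 fold changes, 18 were higher and 1 lower at an unadjusted p under 0.05, and the median was 0.23. Over all genes tested, 9.34% were higher and 6.42% lower at that unadjusted p, which is also the background for the counts of this kind in the lists that follow. Syt2, a fast calcium sensor for release, was closest in the upward direction (0.67, limma adjusted p = 0.0515) and Syn3, a synapsin, in the downward direction (-0.60, limma adjusted p = 0.0702). Snap25, the plasma membrane SNARE, was at 10062 and 12370 in untrained and at 13056, 13686 and 15065 in trained CA3 (log2 fold change 0.32, SE 0.0979, limma adjusted p = 0.156). With the spread estimated from all 16 libraries, 15 of the 32 genes passed, whereas the number of ribosomal protein genes that passed went from 3 to 0. In that fit 413 of 14673 genes passed, 301 upward and 112 downward.

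Receptors and inhibitory synapses gave a mixed picture. None of 33 glutamate receptor genes and partners passed, and their median was 0.04. At an unadjusted p under 0.05, 8 were higher and 2 lower. Grik5, a high-affinity kainate subunit, was closest to the threshold (log2 fold change 0.34, limma adjusted p = 0.0698), followed by its relative Grik4 (0.63, limma adjusted p = 0.0873). At inhibitory synapses, 2 of 24 genes passed, both upward, beside 0.737% of all genes. Iqsec3, an exchange factor that binds gephyrin, was at 1590 and 1502 in untrained and at 2477, 2407 and 2424 in trained CA3, a 1.58-fold rise (log2 fold change 0.66, SE 0.0712, limma adjusted p = 0.00497). Nlgn2, the neuroligin of inhibitory synapses, rose by 0.38 (SE 0.0703, limma adjusted p = 0.0385). In that list 10 values were positive, 5 genes were higher and 5 lower at an unadjusted p under 0.05, and the median was -0.07. The median ran from -0.12 to -0.02 with 1 library left out, the extremes being those without untrained replicates 2 and 1, and it was 0.00 after removal of a trend with GC content and length.

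**Figure D4:**
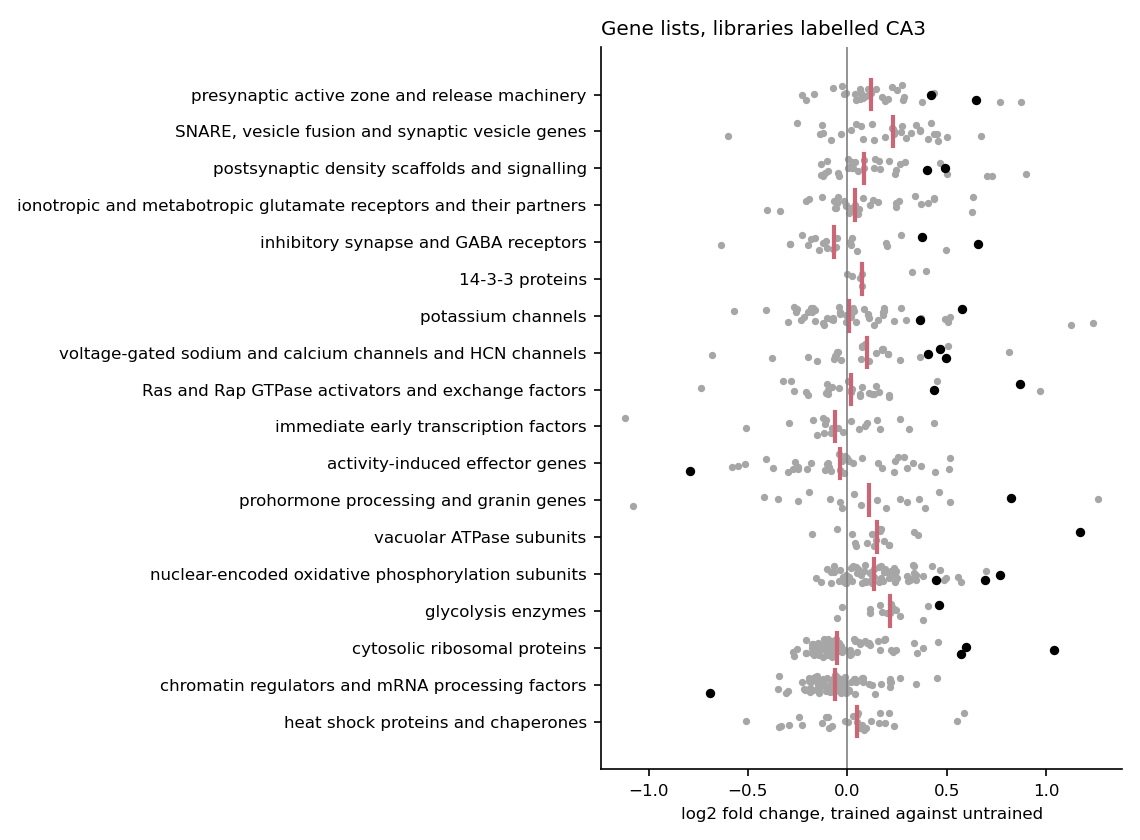
Each point is a gene and the horizontal axis is its log2 fold change, trained against untrained, in the CA3 libraries; rows are gene lists, black points are DEGs, grey points did not pass and red bars are list medians. Medians run from -0.07 for inhibitory synapse genes to 0.23 for vesicle genes, and no list has more than 3 black points.

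Of 28 sodium, calcium and HCN channel genes 3 passed, all upward, and of 52 potassium channel genes 2 passed, both upward, beside 0.737% of all genes. Cacna1b, the pore of N-type calcium channels that trigger release, was at 1296 and 1336 in untrained and at 1728, 1740 and 1758 in trained CA3 (log2 fold change 0.41, limma adjusted p = 0.0324). Hcn2, a pacemaker channel, was at 416 and 409 against 555, 628 and 565 (log2 fold change 0.49, limma adjusted p = 0.0327). The first list had 18 positive values, 9 genes higher and 1 lower at an unadjusted p under 0.05, and a median of 0.10 (0.15 without trained replicate 1). The potassium channels had 26 positive values, 9 genes higher and 7 lower, and a median of 0.01. Kcnmb4, the neuronal beta subunit of BK channels, rose by 0.58 (SE 0.104, limma adjusted p = 0.0343).

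Signalling genes were represented by a Ras GTPase activator. Rasal1, which switches Ras off in response to calcium, was at 186 and 223 in untrained and at 318, 424 and 384 in trained CA3, a 1.82-fold rise (log2 fold change 0.87, SE 0.132, limma adjusted p = 0.0192). Dab2ip, a second Ras GTPase activator, was at 561 and 552 against 740, 760 and 763 (log2 fold change 0.44, limma adjusted p = 0.0306). No other gene among 31 Ras and Rap regulators passed, and their median was 0.02, or 0.01 to 0.04 with 1 library left out. Of the 7 genes for 14-3-3 adaptor proteins all had positive values, 2 had an unadjusted p under 0.05 and none passed, with Ywhag at 6756 and 7729 in untrained and at 9087, 9675 and 9791 in trained CA3 (log2 fold change 0.40, SE 0.0794, limma adjusted p = 0.051) and Ywhah at 0.33 (limma adjusted p = 0.203).

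Further genes had small adjusted p-values. Arhgap33, a GTPase activator that regulates dendritic spines, was at 265 and 259 in untrained and at 445, 469 and 426 in trained CA3 (log2 fold change 0.77, SE 0.0884, limma adjusted p = 0.00581). Adam11, a catalytically inactive member of the ADAM family, was at 1049 and 1141 against 1685, 1921 and 2009 (0.77, limma adjusted p = 0.00581). For both genes the spread within each group was small beside the difference, which goes with their choice by adjusted p. Stac2, which regulates voltage-gated calcium channels, was at 263 and 268 against 411, 468 and 458 (0.74, limma adjusted p = 0.00733). Capn11, a calpain protease, was at 15.8 and 8.90 against 61.4, 57.4 and 80.7 (2.28, SE 0.269, limma adjusted p = 0.00581). Mt1, a metal-binding metallothionein, was at 527 and 471 against 1116, 881 and 946 (0.97, SE 0.106, limma adjusted p = 0.00552). Snhg11, a neuronal noncoding RNA, was at 4855 and 4480 against 6868, 7166 and 6827 (0.58, SE 0.0718, limma adjusted p = 0.00733).

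Genes of energy metabolism leaned upward. Of 77 nuclear-encoded subunits of oxidative phosphorylation, 60 had positive values, 29 were higher and none lower at an unadjusted p under 0.05, and the median was 0.14, against 9.34% higher and 6.42% lower over all genes. The 3 that passed were Uqcrq and Uqcr11, small subunits of complex III, and Ndufb11, of complex I. Uqcrq was at 245 and 231 in untrained and at 410, 435 and 378 in trained CA3, a 1.71-fold rise (log2 fold change 0.77, SE 0.0962, limma adjusted p = 0.00733). Uqcr11 rose by 0.69 (limma adjusted p = 0.0259) and Ndufb11 by 0.45 (limma adjusted p = 0.0414). Among 16 glycolysis enzymes 14 were positive with a median of 0.22, and Hk1, the main hexokinase of brain, was the 1 that passed, with values of 2007 and 2177 in untrained and 2746, 2766 and 3137 in trained CA3 (log2 fold change 0.46, limma adjusted p = 0.0353). The glycolysis and vacuolar ATPase medians were smaller without untrained replicate 1, at 0.11 and 0.05.

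Cytosolic ribosomal protein genes did not share a direction. Of 78 tested, 3 passed, all upward, while 28 values were positive and the median was -0.05, or -0.02 without trained replicate 2. At an unadjusted p under 0.05, 9 were higher and 9 lower. Rplp2, an acidic protein of the ribosomal stalk, was at 208 and 259 in untrained and at 564, 451 and 434 in trained CA3 (log2 fold change 1.04, SE 0.135, limma adjusted p = 0.0101). It shares sequence with a small nucleolar RNA and a further gene, and the sum of the 3 had a log2 fold change of 0.96 (limma adjusted p = 0.0288). Rplp1, the partner of Rplp2 in the stalk, rose by 0.57 (limma adjusted p = 0.0284) and Rpl36 by 0.60 (limma adjusted p = 0.0268). Chromatin regulators and mRNA processing factors also had mostly negative values, with 23 of 83 values positive, a median of -0.06 (-0.12 without trained replicate 1 and -0.02 without trained replicate 3) and Bcl6 as the 1 that passed.

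No difference was detected in immediate early genes 60 min after the retention test. None of 22 immediate early transcription factors passed, 1 was higher and 1 lower at an unadjusted p under 0.05, and the median was -0.06. Fos was at 119 and 106 in untrained and at 91.0, 99.2 and 125 in trained CA3 (log2 fold change -0.11, SE 0.160, limma adjusted p = 0.780), and the groups overlapped. Egr1 had a log2 fold change of -0.12 (SE 0.0883, limma adjusted p = 0.555) and Npas4 one of 0.16 (SE 0.148, limma adjusted p = 0.622). Arc, whose promoter drives the Cre of these mice, was at 1665 and 1609 against 1579, 1452 and 1521 (log2 fold change -0.11, SE 0.0741, limma adjusted p = 0.502). The members nearest to the threshold were Atf3, a stress-responsive factor (-1.12, limma adjusted p = 0.135), and Jund (0.44, limma adjusted p = 0.159). A p that misses the threshold does not show that these genes were equal. Of 39 activity-induced effector genes Inhba was the 1 that passed, 16 were positive, and 4 were higher and 8 lower at an unadjusted p under 0.05.

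Neuropeptide and secretory genes included Sst, the peptide of a class of dendrite-targeting interneurons. Sst was at 202 and 182 in untrained and at 328, 385 and 314 in trained CA3, a 1.77-fold rise (log2 fold change 0.82, SE 0.113, limma adjusted p = 0.0101). It was the only one of 20 prohormone and granin genes to pass, and also the only one of 18 interneuron markers, whose median was 0.16, or 0.05 without untrained replicate 2 and 0.11 without trained replicate 3. Pcsk1n, an inhibitor of prohormone processing, was at 197 and 159 in untrained and at 544, 471 and 304 in trained CA3. It did not pass, with a log2 fold change of 1.26 (SE 0.265, limma adjusted p = 0.120). Heat shock genes had no member that passed among 29, with 2 higher and 3 lower at an unadjusted p under 0.05, the nearest being Hspa1b (0.59, limma adjusted p = 0.0880) and Hspa1a (0.55, limma adjusted p = 0.103), which are themselves near-identical.

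The promoter of Sst is a textbook target of the cAMP response element (CRE), TGACGTCA, which binds CREB. RefSeq promoters, 250 bases before to 50 after the start of a gene in GRCm38.p6, were found for 72 of the 102 upregulated and 12 of the 16 downregulated genes. The CRE letters, searched on both strands, were in 5 of the 72 (6.94%) and in 1 of the 12 (8.33%), against 3.22% of the promoters of all genes tested and 1.88% of all promoters in the table. Chpf held 2 matches and the first is shown. For each of the 6 promoters, 30 bases around a match are printed along the strand of the gene, with the CRE in capitals:

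Sst: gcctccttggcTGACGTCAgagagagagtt

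Meg3: gcagaatgcgcTGACGTCAaagaccacccc

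Chpf: gcctctgctccTGACGTCActcagggtgca

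Emc10: ccggcgttccgTGACGTCAacgacgtcact

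Ptprs: ggcggaaggggTGACGTCAccggctggggg

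Btaf1: aaacgtgccggTGACGTCActtccggcgtg

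The window of Sst lies at chr16:23890874-23890903 on the minus strand and that of Meg3, an abundant maternally expressed noncoding RNA, at chr12:109540928-109540957 on the plus strand. Chpf, a chondroitin synthase subunit, has a window at chr1:75479539-75479568 (minus), Emc10, of the endoplasmic reticulum membrane complex, at chr7:44496563-44496592 (minus), Ptprs, a receptor phosphatase of axons, at chr17:56476457-56476486 (minus) and Btaf1 at chr19:36926059-36926088 (plus). The first base of the motif lies 48 bases before the start in Sst, 57 in Meg3, 86 in Chpf, 163 in Emc10 and 9 in Btaf1, whereas in Ptprs it is base 6 after the start. Btaf1 was lower in trained CA3 and the other 5 were higher. The GC box of Sp1, GGGCGG, was in 63.9% of the upregulated promoters, 4 of the 12 downregulated ones (33.3%) and 64.5% of those of all genes tested. The core of the NRF1 motif, GCGCATGC, was in 4.17% of the upregulated promoters and 0 of the 12 downregulated ones, against 5.33% of all. The E-box CACGTG was in 5.56% and in 3 of the 12, against 10.1%. A match of letters does not show binding.

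Markers of neurons and glia within the tissue also varied. All 15 dentate granule cell markers had negative log2 fold changes, with a median of -0.25 and none that passed, and 5 had an unadjusted p under 0.05. Without trained replicate 1 the median was -0.43 and 7 of the 15 passed. In that fit 680 of 13771 genes passed, 468 upward and 212 downward. Stxbp6 (-0.50, limma adjusted p = 0.230) and Lct (-0.59, limma adjusted p = 0.142) were those nearest to the threshold. Prox1 was at 4786 and 3902 in untrained and at 4002, 2862 and 2690 in trained CA3, so trained replicate 1 overlapped the untrained libraries. The summed level of the list was 22023 and 18262 in untrained and 13744 to 19530 in trained libraries. CA3 markers had a median of 0.59 with 12 of 16 positive, and the median was 0.30 without untrained replicate 1. Their log2 fold changes ran from -1.63 to 1.13, and 7 were higher and 2 lower at an unadjusted p under 0.05. Without trained replicate 1, 7 of the 16 passed, beside the same 680 of 13771 genes. Cdh24, a cadherin, was the 1 that passed with all 5 libraries, with values of 54.6 and 51.3 in untrained and 129, 112 and 114 in trained CA3 (log2 fold change 1.13, SE 0.146, limma adjusted p = 0.00861). The summed level of CA3 markers was 8934 and 12120 in untrained against 12787 to 15815 in trained libraries. The part of the makeup of the dissected tissue in the differences between trained and untrained CA3 was not tested.

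CA2 markers had a median of -0.27 with 3 of 10 positive, and CA1 markers one of 0.13 with 7 of 12 positive. Both medians turned direction without untrained replicate 2, to 0.15 and -0.03. None passed in either list, and at an unadjusted p under 0.05 there were 4 CA2 markers (1 higher and 3 lower) and no CA1 marker. Of 18 oligodendrocyte markers 17 were positive, with a median of 0.23 that became -0.08 without untrained replicate 1, and Olig1, a factor of oligodendrocyte precursors, rose by 0.51 (limma adjusted p = 0.0382). Astrocyte, microglia and endothelial markers had medians of -0.00, 0.11 and 0.05 (microglia 0.07 without trained replicate 3) and no member that passed. At an unadjusted p under 0.05 there were 3 astrocyte markers (1 higher and 2 lower), 1 microglia marker (higher) and 1 endothelial marker (lower). The nearest to the threshold were Fgfr3 (0.37, limma adjusted p = 0.0553) for astrocytes, Trem2 (0.64, limma adjusted p = 0.135) for microglia and Vtn, vitronectin (-0.24, limma adjusted p = 0.287), for endothelium and pericytes.

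The base composition of the transcripts moved with the comparison. The median GC content of the upregulated genes was 58.8%, that of the downregulated genes 46.6% and that of all genes tested 49.7%. In the quartile of genes with the highest GC content, above 54.5%, the median log2 fold change was 0.12 and 80 of the 102 upregulated genes were found. In the quartile with the lowest, below 44.8%, the median was -0.07 and 2 upregulated and 7 downregulated genes were found. Each of the 3 trained libraries had this shift, with medians of 0.13, 0.12 and 0.12 in the highest quartile. After a trend with GC content and length was removed, 25 genes passed, 20 upward and 5 downward, and all 25 were among the 118. Of the DEGs named here, those that passed were Atp6v0c-ps2, Ttr, Zfp966, Atp6v0c, Zfp967, Iqsec3, Mt1, Arhgap33, Bsn, Capn11, Snhg11, Uqcrq, Stac2, Meg3, Cdh24, Rplp2, Gpr151, Bcl6, Kcnmb4 and Phactr3, and the others lost their call. Rasal1 had a log2 fold change of 0.68 in it, from 0.87 (limma adjusted p = 0.104), and Sst one of 0.66, from 0.82 (limma adjusted p = 0.0801). For Hcn2 it was 0.17, from 0.49 (limma adjusted p = 0.432), and for Nlgn2 0.19, from 0.38 (limma adjusted p = 0.259). Of the ribosomal proteins, Rpl36 had 0.19, from 0.60 (limma adjusted p = 0.503), and Rplp1 0.30, from 0.57 (limma adjusted p = 0.225). Of the scaffolds, Begain had 0.22, from 0.49 (limma adjusted p = 0.294), Ppfia3 0.23, from 0.42 (0.204), and Dlgap4 0.25, from 0.40 (0.176), so that no postsynaptic density gene passed. The log2 fold changes of Uqcr11 (0.40), Olig1 (0.32), Ptprs (0.31), Brsk1 (0.30), Emc10 (0.29) and Srcin1 (0.26) were also smaller by more than 1.5 times. Other calls were lost with little change in size. Clic6 had -2.56, from -2.55 (limma adjusted p = 0.0629), and Cacna1b 0.412, from 0.405 (0.0528). Inhba had -0.70, from -0.79 (0.0817), and Sv2c -0.59, from -0.66 (0.0503).

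**Figure D5:**
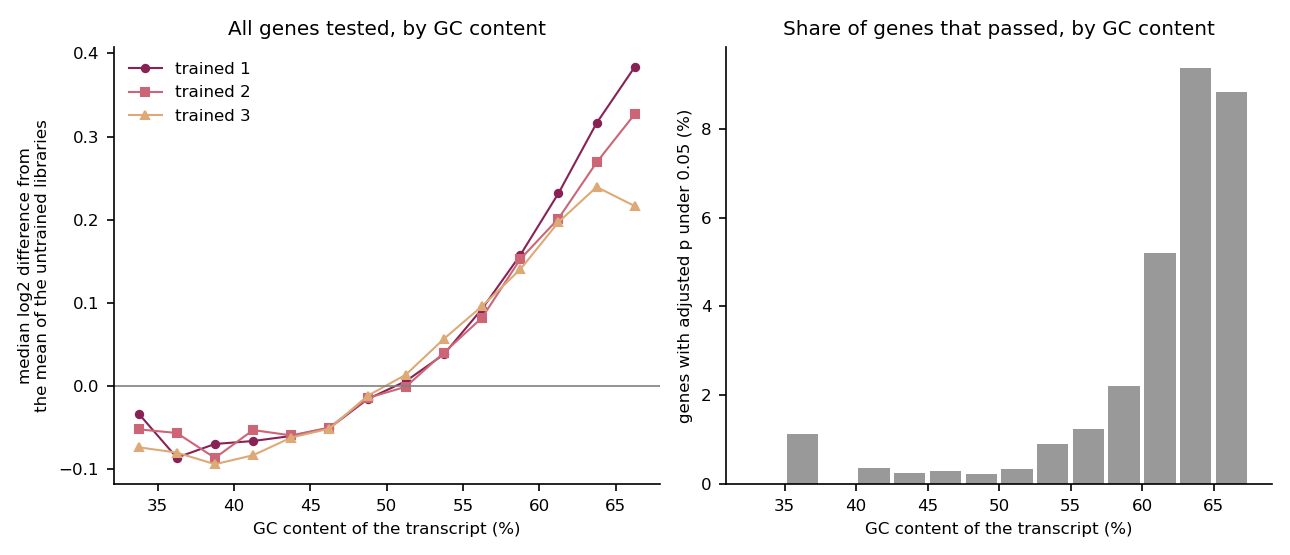
Genes tested were grouped by the GC content of their transcript (horizontal axes, in percent): the left panel gives the median log2 difference of each trained CA3 library from the mean of the untrained ones and the right panel the percent of genes that were DEGs, in bins of at least 20 genes. All 3 trained libraries rise with GC content, and most DEGs lie above 54.5% GC.

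The CA3 effect was then set against the effects in CA1 and DG, taken from other libraries that were in part of the same animals. By their labels, CA3 had untrained animals 1 and 2, DG had 1 and 3, and CA1 had all 3. In one fit of all 6 groups, the training effect in CA3 differed from that in CA1 for 4 of 14673 genes (0.0273%) and from that in DG for 24 (0.164%). Of the 118 DEGs, the effect differed from DG for 8, which were Brsk1, Gpr151, Iqsec3, Phactr3, Slc7a11, Snhg11, Srcin1 and Stac2, and from CA1 for Snhg11 alone. The 102 upregulated genes had median log2 fold changes of 0.55 in CA3, 0.33 in CA1 and 0.19 in DG, and the 16 downregulated genes had medians of -0.78, -0.59 and -0.21. The CA3 medians are those the DEGs were chosen by. Marker levels moved with training in the CA1 libraries. Their summed CA1 markers were 5028 to 7673 in untrained and 2985 to 3377 in trained CA1. Their summed CA3 markers were 9088 to 9558 in untrained and 12256 to 12851 in trained CA1. In DG the groups overlapped for both sums. The number of genes at 0 also moved with training, and in opposite directions between subregions. It was 3124 to 5425 in untrained and 8323 to 9759 in trained CA1, but 7567 and 8636 in untrained and 3479 to 5944 in trained DG. Xist moved with training in the other subregions as well, at 26.1 to 52.4 in untrained and 17310 to 19318 in trained CA1. It was 25.5 and 52.2 in untrained and 7601 to 15810 in trained DG. The part of marker levels, genes at 0 and sex in the differences between subregions was not tested. Snhg11 had a log2 fold change of 0.58 in CA3 (SE 0.0763) against -0.03 in CA1 and 0.02 in DG, and it was the 1 gene whose CA3 effect differed from both (limma adjusted p = 0.0242 and 0.0346). Stac2 rose by 0.74 in CA3 and had a value of 0.70 in CA1 and -0.11 in DG, so that it differed from DG (limma adjusted p = 0.0221) and not detectably from CA1 (0.971). These counts depended on single animals. Against CA1 the limma fit gave 0 genes without trained 2 or trained 3 (798 and 571 at an unadjusted p under 0.05), 69 without trained 1, 24 without untrained 2 and 4 without untrained 1. Against DG it gave 0 without trained 1 or trained 2 (1366 and 1180 at an unadjusted p under 0.05), 72 without trained 3, 7 without untrained 2 and 19 without untrained 1.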

How the data were processed

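Bulk RNA-seq of CA3 from 3 trained and 2 untrained mice was compared, and 11 libraries of CA1 and DG entered the comparisons between subregions. Libraries were made after depletion of ribosomal RNA, although the labels name polyA RNA. The authors demultiplexed reads with bcl2fastq 2.20, trimmed them with Trim Galore, aligned them with STAR, quantified genes with Salmon and compared groups with DESeq2; the build is GRCm38 in the processing notes. The deposited signal is an estimated count that was already normalized between libraries, by a step that the sources used here do not give for these files. Whole reads could not be recovered, so no count test was run, although one had been planned, and no interval from counts is given.

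Values were tested as log2(value + 2) with limma 3.58.1 in R 4.3.3, with trended and robust variance estimates, and p-values were adjusted by Benjamini-Hochberg over all genes with a value of at least 10 in at least 2 libraries. Fold changes on this scale understate those of low genes. Replicates are separate animals. Named genes were the 12 upregulated and 12 downregulated DEGs with the smallest adjusted p, genes named by the study, up to 4 DEGs or the 2 genes of smallest p in each list, sex-linked transcripts and the 3 strongest interactions in each direction; Arc, Fos, Egr1, Npas4, Prox1, Slc5a3, Folr1, Tac2, Pou4f1, the further downregulated genes and the genes with a CRE were named after their values were seen. Some genes that this rule takes are not reported here. The genes and lists were chosen with earlier results of these data known. None of 15 mitochondrially encoded transcripts was in the tables used here. Symbols of 24464 of 24972 genes (98.0%) were found in GENCODE vM21, and GC content was known for 98.9% of the genes tested. The method was tested on simulated data. These held independent noise and none of the differences between libraries described above, so that test does not bear on the effect of such differences on the calls. Alternatives were other pseudocounts, filters and rescalings, no robust estimation, array weights, all 16 libraries in one fit, each library left out, a replicate block, a sex-linked score, a term for the many genes at 0 in trained replicates 1 and 2, and removal of a trend with GC content and length.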

Additional observations from a re-analysis of the deposited data

Results flagged for a closer look

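The effect of training differed between CA3 and another subregion, by an interaction in the limma fit of all 6 groups, for the 10 genes below, each given as the CA3 effect minus the other effect on the log2 scale. Against CA1, Zfp462, a zinc finger protein, had a difference of 0.98 (SE 0.147, limma adjusted p = 0.0104), with a log2 fold change of 0.35 in CA3 and -0.63 in CA1. Galnt9, a glycosyltransferase, had a difference of 0.88 (limma adjusted p = 0.0141), from 0.50 in CA3 and -0.38 in CA1. Snhg11 had one of 0.60 (limma adjusted p = 0.0242), and Ncald, a neuronal calcium sensor, one of -0.47 (limma adjusted p = 0.0463), from -0.11 in CA3 and 0.36 in CA1.

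Against DG, Stac2 had a difference of 0.85 (limma adjusted p = 0.0221). Atn1, the atrophin transcriptional corepressor, had one of 0.58 (limma adjusted p = 0.0262), from 0.18 in CA3 and -0.40 in DG, and Cdk16, a cyclin-dependent kinase, one of 0.51 (limma adjusted p = 0.0262), from 0.17 and -0.34. In the negative direction, Atrip-trex1, a readthrough transcript, had a difference of -1.54 (SE 0.256, limma adjusted p = 0.0221), from -0.73 in CA3 and 0.81 in DG. Gpr151 had one of -3.78 (SE 0.691, limma adjusted p = 0.0262), from -3.16 and 0.63, and Fabp7, a fatty acid binding protein of glial progenitors, one of -1.30 (SE 0.239, limma adjusted p = 0.0262), from -0.46 and 0.84. In CA3 alone, Snhg11, Stac2 and Gpr151 passed and the other 7 did not. All 10 interactions lost their call without trained animal 2. Without untrained animal 1, the calls of Zfp462 (limma adjusted p = 0.285), Galnt9 (0.167), Ncald (0.332), Cdk16 (0.0922), Gpr151 (0.170) and Fabp7 (0.112) were lost and those of Snhg11, Stac2, Atn1 and Atrip-trex1 were not.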

How the results depend on the processing

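With each library left out in turn, the 118 DEGs became 7 to 680, of which 3 to 468 were upregulated and 2 to 212 downregulated. Fewer DEGs were called after removal of the GC and length trend (25, as 20 higher and 5 lower), with the sex-linked score (47, as 42 and 5), with a term for the libraries with many genes at 0, which leaves trained replicate 3 as the only trained library (14, as 8 and 6) and with no robust estimation (56, as 48 and 8). More were called with array weights (1023, as 707 and 316) and with all 16 libraries in one fit (413, as 301 and 112). The replicate block, in which the numbers are only names of different animals (correlations of deviations 0.0898 and -0.158), gave 1160 (785 higher and 375 lower). Pseudocounts, filters, rescalings and summed copies gave 105 to 143. The number of genes whose CA3 effect differed ranged from 0 to 69 against CA1 and from 0 to 72 against DG when 1 animal was left out, and was 2 and 11 with no robust estimation, while the animal as a replicate block left it at 4 and 24. The direction of a gene with no call in CA3 turned for Atn1 after removal of the GC and length trend (-0.0434), for Egr1 and Fos with the term for many genes at 0 (0.00302 and 0.15) and for Npas4 and Xist with the sex-linked score (-0.0613 and -1.88). List medians near 0 turned with 1 library left out for glutamate receptor genes (-0.04 to 0.09), potassium channels (-0.06 to 0.06), immediate early factors (-0.07 to 0.01), astrocyte markers (-0.06 to 0.06) and endothelial markers (-0.11 to 0.22). The cause of these shifts was not tested. With 5 libraries, depth known only as an approximation and sex-linked transcripts that move with training, sex and training cannot be told apart in full.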
